A study of Mus musculus with 36 samples.

Results

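SIN3A sites that lay far from promoters in mouse embryonic stem cells (ESCs) were described here. A site was a peak of the SIN3A list made with spike-in chromatin that overlapped a peak of the SIN3A list made without it by at least 1 bp. It was called distal when its midpoint was more than 5 kb from the transcription start site (TSS) of every transcript of every protein-coding gene. Of 8836 such sites on chromosomes 1 to 19, X and Y, 944 (10.7%) were distal and 7892 were promoter-proximal. The members were therefore chosen by SIN3A peak calls and by position, so that their SIN3A values are given as a description and not tested. The SIN3A, CHD4 and MBD3 lists from ESCs were labelled as coming from wild-type R1 ESCs grown in serum with LIF and 2i. Neural progenitor cells (NPCs) were derived in vitro from the same R1 line and grown in NPC medium. ZFP296 was mapped with a GFP antibody in ESCs labelled as R1 with a ZFP296 BAC (bacterial artificial chromosome) transgene, whereas the study's methods describe KH2 cells with a transfected GFP-tagged ZFP296 cDNA construct and no BAC, so that this list shows a tagged transgene product in 1 line. SIN3A was mapped in 1 sample without and 1 sample with spike-in (Drosophila chromatin added to the sample), CHD4 and MBD3 in 2 ESC samples and 1 NPC sample each, and ZFP296 in 1. The study's text calls the ESC MBD3 samples biological replicates, and the sources used here do not say whether the CHD4 samples came from separate cultures.

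SIN3A is a scaffold protein without a DNA binding domain of its own that holds the histone deacetylases HDAC1 and HDAC2 together with other subunits. It is brought to DNA by sequence-specific factors, among them REST, the repressor of neuronal genes, which binds a long sequence named RE1 and recruits SIN3A through its amino-terminal part. CHD4 and MBD3 belong to NuRD, a complex that slides nucleosomes and, like that of SIN3A, removes acetyl groups through HDAC1 and HDAC2. ZFP296 is a zinc finger protein found in ESCs. In ESCs, enhancers far from promoters are bound by factors such as POU5F1, SOX2, ESRRB and KLF4, whereas most promoters of widely used genes lie in sequence rich in CpG.

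The sequence at the centre of some distal sites is shown here by class. Sequence rich in CpG was present at 260 of the 944 members (27.5%). RE1 with up to 1 mismatch was present at 44 (4.66%), so that most members had neither. Strong peaks that held the RE1 string are shown first, because REST is a known partner of SIN3A and these sites carried some of the highest SIN3A values away from promoters in both lists. Each line gives the nearest protein-coding gene and the mm9 sequence around the string on its own strand, 5′ to 3′, with the 13 fixed letters of RE1 (CAGCACC, 2 free bases, GGACAG) in capitals.
Erich1, chr8:14072723-14072749, plus strand: tggggtCAGCACCaaGGACAGcaccag
Phf21b, chr15:84660023-84660049, minus strand: tgaggcCAGCACCacGGACAGcaccag
Lhx2, chr2:38273685-38273711, minus strand: tagaccCAGCACCcaGGACAGctcccc
Kcnk9, chr15:72399085-72399111, minus strand: ttttttCAGCACCgaGGACAGtgatcg
Garnl3, chr2:32873730-32873756, plus strand: tggcgcCAGCACCaaGGACAGcaccgc
Xkr6, chr14:64300452-64300478, plus strand: tgaaggCAGCACCacGGACAGctccca

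Sites that also carried CHD4, MBD3 and ZFP296 peaks form another class. Their central 200 bp held a SOX, octamer, ESRRB or KLF string at 44 of 141 (31.2%), against 147 of all 944 members (15.6%). The central 120 bp of 2 strong ones, chosen because they hold such a string there, are shown on the plus strand of mm9, with the SOX string (CCATTGT) or the octamer bound by POU5F1 (ATGCAAAT) in capitals.
Med13l, SOX string, chr5:118894638-118894757: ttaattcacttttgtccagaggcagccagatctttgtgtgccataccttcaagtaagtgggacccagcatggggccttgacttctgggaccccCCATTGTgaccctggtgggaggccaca
Myst4, octamer, chr14:22305525-22305644: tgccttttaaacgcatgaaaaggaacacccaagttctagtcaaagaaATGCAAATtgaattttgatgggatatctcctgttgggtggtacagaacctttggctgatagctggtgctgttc

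A further class had the sequence of a CpG island although no protein-coding TSS lay within 5 kb. Of the 260 CpG-rich members, 67 (25.8%) lay within 1 kb of the TSS of a gene that is not protein-coding, against 3.36% of the other 684. One CpG-rich site lay in an intron of Baz2a, 5172 bp from the nearest TSS and so just beyond the distance threshold. It held 14 CpG dinucleotides (capitals) in its central 120 bp.
Baz2a, chr10:127533803-127533922, plus strand: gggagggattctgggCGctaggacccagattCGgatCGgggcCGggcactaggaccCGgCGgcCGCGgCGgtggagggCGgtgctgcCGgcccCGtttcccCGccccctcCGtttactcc

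The lists set the limits of what can be read from these sites. The list with spike-in held 11422 peaks at a threshold of 0.001 and the list without it 16170 peaks at 0.0001, so that preparation, spike-in and threshold cannot be told apart between them. Each peak carried a −log10 value of the authors, which depends on sequencing depth and was not compared between factors. How many reads entered each SIN3A list is not given in the sources used here. Distal peaks of the spike-in list were found again in the other list in 59.6% of cases (944 of 1585), against 80.3% of its promoter-proximal peaks (7892 of 9827). The members had a median value of 8.72 in the spike-in list, with a range from 3.06 to 167. Peaks are counted once per list, and the shares and intervals below cover counting error over sites only, not the spread between cultures.

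Most distal sites lay between genes. Of the 944 members, 592 (62.7%) were intergenic, 307 (32.5%) fell in an intron and 45 (4.77%) in an exon of a protein-coding gene. The median distance to the nearest protein-coding TSS was 20151 bp. The distance threshold was crossed closely on either side by sites near Lrrc8a at 4932 bp, Aven at 4971 bp and Recql5 at 4987 bp, which stayed out, and near Gpr84 at 5018 bp, Chmp4c at 5020 bp and C77080 at 5043 bp, which came in. Their values in the spike-in list were 10.3, 7.39 and 6.07 outside and 35.7, 8.92 and 8.13 inside. At 90 members (9.53%) the TSS of a gene that is not protein-coding lay within 1 kb, most often of a lincRNA (39) or a processed transcript (26), followed by microRNAs (10) and pseudogenes (9). Values of this group in the spike-in list were much like those of the other 854 members (medians 8.75 and 8.72, upper quartiles 11.1 and 12.4). Other features differed. Sequence rich in CpG was present at 74.4% of the 90 and 22.6% of the 854, and CHD4 at 16.7% and 48.5%. MBD3 was present at 7.78% and 27.4% and ZFP296 at 8.89% and 29.3%, and these differences were not tested. The highest members of the group are given as examples. The site near the start of 5430417L22Rik, 96 bp from its TSS, had a value of 78.1 with and 120 without spike-in, and the site 37 bp from the start of 2610005L07Rik had 77.4 and 67.0.

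The first question was whether NuRD and ZFP296 shared distal SIN3A sites as often as promoter-proximal ones. As a share of SIN3A sites, they did so far more often. The partner lists were themselves mostly distal. Between 61.5% (MBD3 replicate 1) and 73.5% (MBD3 replicate 2) of the peaks in the ESC CHD4, MBD3 and ZFP296 lists were distal, against 13.9% in the spike-in SIN3A list. Shares of the partner peaks that carried SIN3A were not compared between distal and promoter-proximal peaks. CHD4, the remodeling ATPase of NuRD, had a peak in both ESC lists at 429 of 944 distal sites (45.4%, 95% interval 42.2 to 48.7) and at 635 of 7892 promoter-proximal sites (8.05%). The odds ratio, the odds of a peak at distal over those at promoter-proximal sites, was 9.52 (8.15 to 11.1; two-sided Fisher's exact test, adjusted p = 6.76e-171 over 5 lists). MBD3, the methyl-CpG binding domain protein that defines this form of NuRD, was present at 25.5% against 2.10% of sites, with an odds ratio of 15.9 (12.8 to 19.8; exact test, adjusted p = 1.17e-135). GFP-tagged ZFP296 was present at 27.3% against 3.84%, with an odds ratio of 9.42 (7.80 to 11.4; exact test, adjusted p = 8.05e-111).

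The direction was the same in each single list. CHD4 replicate 1 marked 47.5% of distal and 10.3% of promoter-proximal sites, and replicate 2, a longer list labelled wild type but with a Zfp219 BAC mentioned in the names of its peaks, marked 68.6% and 29.8%. For MBD3 the shares were 30.9% and 4.32% in replicate 1 and 41.1% and 5.41% in replicate 2. Odds ratios over the 4 single lists ran from 5.15 to 12.2.

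**Figure D1:**
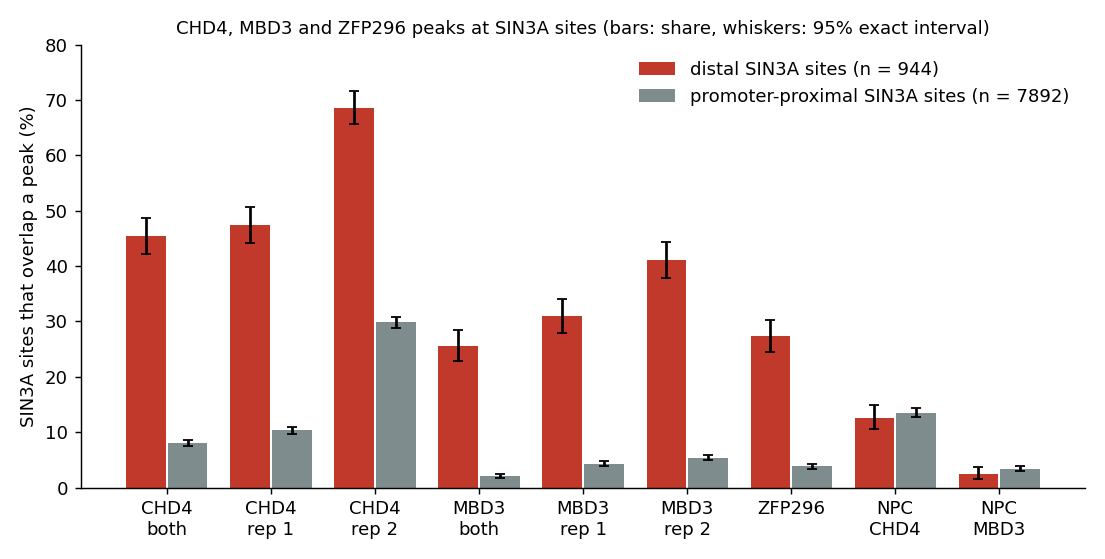
Share of SIN3A sites (y axis, percent) that overlapped a peak of each list (x axis), for 944 distal sites (red) and 7892 promoter-proximal sites (grey), with 95% exact intervals as whiskers. ESC CHD4, MBD3 and ZFP296 bars are higher at distal sites in every list, while the NPC bars are close to each other (12.6% and 13.6% for CHD4).

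NPC CHD4 peaks overlapped 12.6% of distal and 13.6% of promoter-proximal SIN3A sites of ESCs, with an odds ratio of 0.92 (0.744 to 1.13; Fisher's exact test, adjusted p = 0.449), and NPC MBD3 peaks overlapped 2.54% and 3.40% (odds ratio 0.742, 0.465 to 1.14; adjusted p = 0.223). The NPC CHD4 odds ratio ran from 0.634 to 2.18 over the alternatives tried, crossing 1. Among distal sites that had CHD4 in only 1 cell type, 379 had it in ESCs and 69 in NPCs. Of such promoter-proximal sites, 435 had it in ESCs and 870 in NPCs. These counts asked for a peak in both ESC lists but in only 1 NPC list. With ESC replicate 2 alone, 1708 promoter-proximal sites had it in ESCs only and 423 in NPCs only, and the distal counts were 558 and 29. SIN3A itself was mapped in ESCs only, so that these NPC peaks say nothing on SIN3A in NPCs.

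The share of sites with CHD4 was higher in each distance bin out to 5 to 10 kb and varied little beyond. CHD4 in both ESC lists marked 6.52% of the 7303 sites within 1 kb of a TSS, 22.3% at 1 to 2 kb, 32.8% at 2 to 5 kb and 43.6% at 5 to 10 kb. Farther out the shares lay between 42.9% and 49.4%. CpG-rich sequence went the other way, from 91.7% of sites within 1 kb to 33.6% at 2 to 5 kb and 26.2% at 5 to 10 kb.

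**Figure D2:**
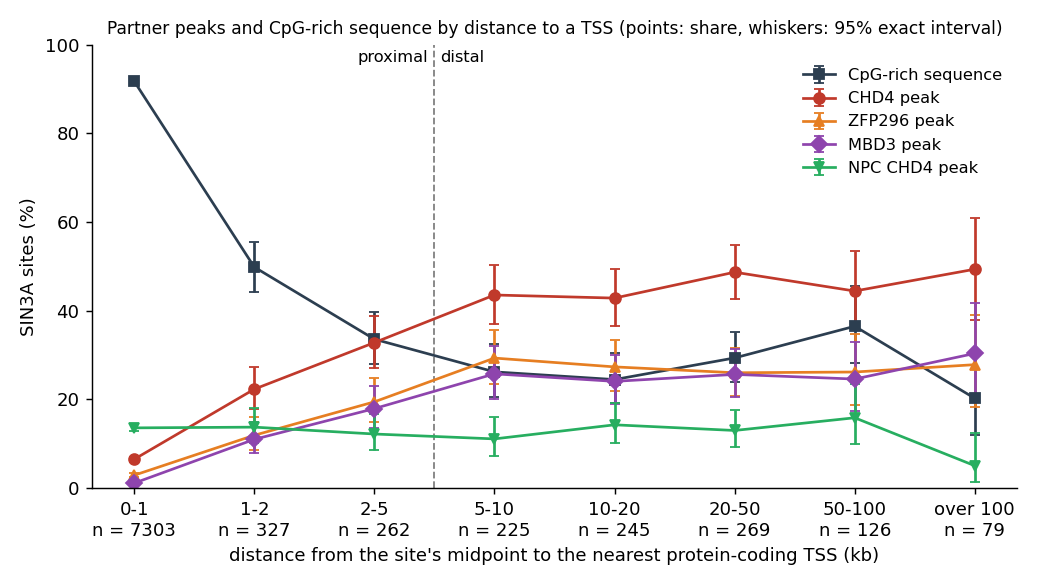
Share of SIN3A sites (y axis, percent) with a CHD4, ZFP296, MBD3 or NPC CHD4 peak or with CpG-rich sequence, by distance of the midpoint to the nearest protein-coding TSS (x axis, kb), with 95% exact intervals as whiskers and the number of sites under each bin. ESC partner shares are higher in each bin out to 5 to 10 kb while CpG-rich sequence becomes rarer, and NPC CHD4 stays between 5.06% and 15.9%.

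CpG content separated the distal sites further. A site was called CpG-rich when the 500 bp around its midpoint had over 50% G+C and a ratio of observed to expected CpG over 0.6. This held for 260 of 944 distal sites (27.5%) and for 6951 of 7892 promoter-proximal sites (88.1%), with an odds ratio of 0.0515 (0.0438 to 0.0604; Fisher's exact test, p too small to be represented), against 0.713% of all 500 bp windows of the genome. Within the distal sites, CHD4 was found at 17.7% of CpG-rich and 56.0% of other sites (odds ratio 0.169, 0.116 to 0.243; exact test, adjusted p = 1.46e-27 over 4 lists). MBD3 was found at 2.31% against 34.4% and ZFP296 at 3.85% against 36.3% (odds ratios 0.0452 and 0.0705). NPC CHD4 ran in the opposite direction, with 26.2% of CpG-rich and 7.46% of other distal sites (odds ratio 4.39, 2.90 to 6.68; exact test, adjusted p = 2.86e-13).

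Because CpG content and distance go together, the comparison of distal with promoter-proximal sites was repeated within each sequence class, a choice made after the values were seen. Among sites without CpG-rich sequence, CHD4 was present at 56.0% of 684 distal and 25.1% of 941 promoter-proximal sites (odds ratio 3.80, 3.06 to 4.72), MBD3 at 34.4% and 11.5% (odds ratio 4.03) and ZFP296 at 36.3% and 17% (odds ratio 2.77). Among CpG-rich sites the CHD4 shares were 17.7% and 5.74% (odds ratio 3.53) and those of MBD3 2.31% and 0.834% (odds ratio 2.81, 0.98 to 6.57; exact test, adjusted p = 0.0452). ZFP296, at 3.85% and 2.06%, did not pass the test there (odds ratio 1.90, 0.883 to 3.66; exact test, adjusted p = 0.091). The odds ratios of the ESC lists were thus smaller in each class than over all sites. NPC CHD4 was more frequent at distal than at promoter-proximal sites among CpG-rich ones (26.2% against 14%; odds ratio 2.18, exact test, adjusted p = 1.30e-06), a difference that the pooled shares did not show.

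The combinations of partners were uneven. All of CHD4, MBD3 and ZFP296 were present at 141 distal sites (14.9%) and at 62 promoter-proximal sites (0.786%), and none of these 141 distal sites was CpG-rich, which allows a share of up to 2.13%. A further 87 members had CHD4 and MBD3, 64 had CHD4 and ZFP296, and 137 had CHD4 alone. MBD3 without CHD4 was found at 13 members. At 457 members (48.4%) none of the 3 was called by these criteria, and 251 (26.6%) had no peak in any single ESC list of CHD4, MBD3 or ZFP296. Of these 251, 121 (48.2%) were CpG-rich, 32 (12.7%) held RE1 with up to 1 mismatch and 43 (17.1%) lay within 1 kb of the TSS of a gene that is not protein-coding, while 92 (36.7%) had none of these features.

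Single members show the class with all partners. The site 116030 bp from the TSS of Med13l had SIN3A values of 31.6 with and 13.2 without spike-in, CHD4 values of 12.3 and 11.7, MBD3 values of 23.0 and 17.9 and a ZFP296 value of 13.6. The intergenic site 15400 bp from Klf2, which encodes a pluripotency transcription factor, had SIN3A values of 28.6 and 11.5 and CHD4 values of 19.7 and 19.6. The site in an intron of Tmem51 had SIN3A values of 24.6 and 16.6 and the highest ZFP296 value of the 5 named sites of this class, 28.1.

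RE1 marked a small class of members, most of them without NuRD peaks. The string without a mismatch was found in the central 200 bp of 22 distal sites (2.33%) and 34 promoter-proximal sites (0.431%), with an odds ratio of 5.51 (3.06 to 9.75; Fisher's exact test, adjusted p = 5.76e-08 over 14 strings), and in 0.0044% of all 200 bp windows of the genome. When sites without CpG-rich sequence alone were compared, the shares were 3.07% and 1.70% and the difference did not pass the test (odds ratio 1.83, 0.902 to 3.78; exact test, adjusted p = 0.193). With up to 1 mismatch, 44 members (4.66%) held it. The string sat near the middle of the peaks, at a median distance of 18 bp from the midpoint for exact matches and with 14 of the 22 within 25 bp. Of 620 exact strings in the genome, 433 were more than 5 kb from a protein-coding TSS. A SIN3A site of both lists covered 26 of these 433 (6.0%), and a peak of the list without spike-in covered 43 (9.93%). Of the 187 strings within 5 kb of such a TSS, these covered 45 (24.1%) and 73 (39.04%).

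CHD4 was called at 1 of the 22 sites with the exact string, against 428 of 922 other members (46.4%; odds ratio 0.0551, 0.00133 to 0.345; Fisher's exact test, adjusted p = 0.00014 over 4 lists). MBD3 was called at 0 of the 22, against 26.1% of other members (exact test, adjusted p = 0.00431), and a count of 0 in 22 sites allows a share of up to 13.6%. ZFP296 had 2 of the 22 (9.09%) against 27.8%, which did not pass the test (exact test, adjusted p = 0.0724), and NPC CHD4 0 of the 22 against 12.9% (adjusted p = 0.0977). With up to 1 mismatch allowed, all 4 lists passed. Over the genome, CHD4 replicate 1 covered 1 of the 433 distal RE1 strings and replicate 2 covered 5.

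RE1 members reached high SIN3A values. RE1 with up to 1 mismatch was found at 6 of the 20 members with the highest values in the spike-in list and at 11 of the first 50. The member in an intron of Erich1 had 113 with and 285 without spike-in, the highest value without spike-in among the distal sites. An intron of Phf21b, which encodes a PHD finger protein, had 95 and 178. The intergenic site 65641 bp from Lhx2, a LIM homeobox gene of forebrain and eye development, had 88.5 and 153. An intron of Celf4, an RNA binding protein gene of neurons, had 50.3 and 169, and the site 22446 bp from Kcnk9, a potassium channel gene, had 35.9 and 167. In 40 of the 44 RE1 members the list without spike-in gave the higher value, with a median ratio of 2.5, against 1.54 for the other members.

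A different group of members stood out in the spike-in list. The members ranked 1, 2, 3 and 9 in that list, near Filip1l, Limd1, Gphn and BC002059, had values of 167, 146, 124 and 84.3 with spike-in and only 10.2, 7.77, 27.4 and 6.65 without it. These 4 and the site in Fryl were the 5 members (0.53%) whose value with spike-in was over 3 times that without, and the member ranked 5, near Myl12b, had 104 and 35.2. In the other direction, 749 of the 944 members had the higher value without spike-in. The sites near Limd1, Gphn and Myl12b also had ZFP296 peaks, with values of 12.6, 21.5 and 11.5, and no peak in either ESC CHD4 list. The sequence at Limd1 and Gphn is shown on the plus strand because it differs from the other classes.
Limd1, exon of Lars2, chr9:123371065-123371184: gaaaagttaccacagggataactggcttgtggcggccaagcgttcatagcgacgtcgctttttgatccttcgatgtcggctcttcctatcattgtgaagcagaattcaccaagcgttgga
Gphn, intron, chr12:79451920-79452039: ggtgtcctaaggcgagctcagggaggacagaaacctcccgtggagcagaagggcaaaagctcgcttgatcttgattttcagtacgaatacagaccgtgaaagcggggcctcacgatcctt
Both runs read like large-subunit ribosomal RNA, which is general background, since no ribosomal DNA sequence was compared here. The sequences near Filip1l, BC002059, Fryl and Myl12b are not shown and were not compared with ribosomal DNA either. The central 50 bp occurred once in the assembly at Limd1 and 2 times at Gphn. Copies missing from the assembly could not be counted, so that these numbers do not show how often the sequence occurs in the cells. Both SIN3A lists differ in spike-in, preparation and threshold together, so that these cannot be told apart as sources of the difference in values. Leaving out all sites over 3 times higher in the spike-in list changed no call on CHD4, MBD3 or ZFP296.

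**Figure D3:**
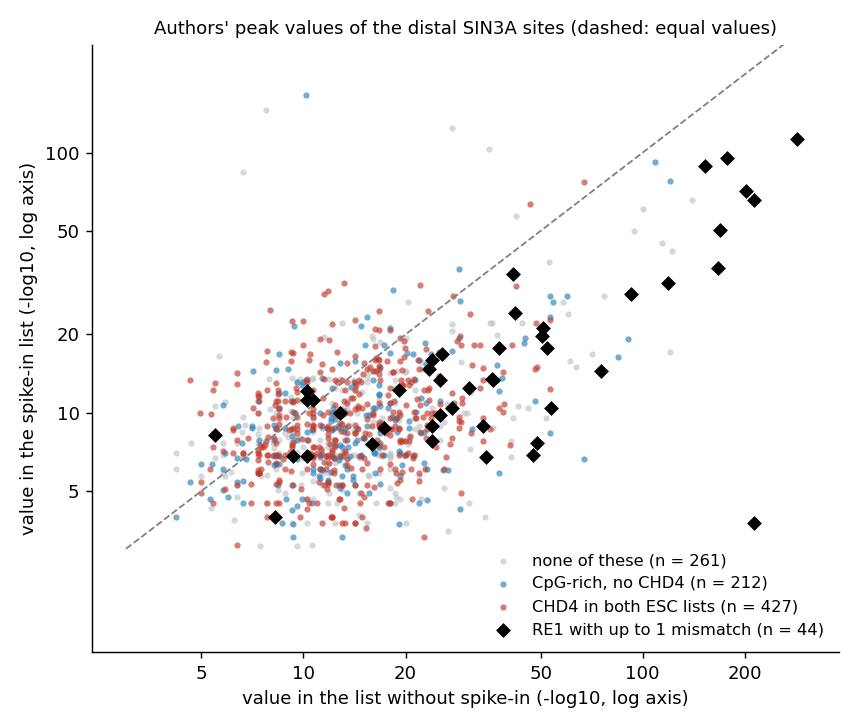
The authors' −log10 values of the 944 distal SIN3A sites in the list without spike-in (x axis) and in the spike-in list (y axis), both on log axes, with sites coloured by class and equal values dashed. Black diamonds (RE1 with up to 1 mismatch, n = 44) reach the upper right, and the points over 3 times higher in the spike-in list are the members near Limd1, Filip1l, BC002059, Gphn and Fryl.

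Across all members the values of both lists were moderately related (Spearman's rho 0.359 and Pearson's r of the log10 values 0.484 across 944 sites, which share the same libraries and are not replicates). CHD4 was called at 41.4% of members with the lowest values in the spike-in list (up to 6.82) and at 44.9% of those with the highest (from 12.4). For MBD3 these shares were 19.7% and 31.4%, for ZFP296 20.1% and 33.5%, and for RE1 with up to 1 mismatch 1.67% and 9.75%.

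The sequence strings of other factors were compared in the same way. In the central 200 bp, 13 of 14 strings passed the test, 8 of them more frequent at distal sites. The SOX string was found at 5.72% of distal and 1.31% of promoter-proximal sites (odds ratio 4.59, 3.21 to 6.49; exact test, adjusted p = 6.30e-15), the octamer at 3.07% and 0.494% (odds ratio 6.38), the ESRRB string TCAAGGTCA at 2.22% and 0.329% (odds ratio 6.88) and the KLF string GGGTGTGG at 5.51% and 2.66% (odds ratio 2.13). The AP-1 string TGACTCA, the telomere repeat unit TTAGGG and a 12-letter core of the CTCF motif were also more frequent at distal sites. Their shares there were 3.39%, 8.16% and 1.38%, against 3.11%, 7.57% and 0.0934% of all 200 bp windows of the genome. For AP-1 and TTAGGG the distal shares were thus close to those of the genome. The SP string GGGCGG was found at 28.8% of distal and 58.2% of promoter-proximal sites (odds ratio 0.29, 0.249 to 0.337; exact test, adjusted p = 1.16e-65), and the ETS string CCGGAAGT, the YY1 string AAGATGGCG, the CRE string TGACGTCA and the E-box CACGTG were less frequent at distal sites too, although the E-box stood at an odds ratio of 1.08 without the spike-in list and lost its call under further alternatives. With a value of at least 10 in both SIN3A lists, the AP-1, YY1 and CRE strings lost their calls (exact test, adjusted p = 0.220, 0.303 and 0.842), and CRE did so beyond 10 kb (0.150) and in the central 100 bp (0.161) too. The NRF1 string GCGCATGCG, at 0.424% and 0.925%, did not pass (exact test, adjusted p = 0.138). All strings were read on both strands, and a match is a run of letters, not a bound site.

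Fewer differences were found when CpG-rich sites were left out, which also left fewer sites (684 and 941). Among sites without CpG-rich sequence only 3 of the 14 strings differed between distal and promoter-proximal sites. The SOX string stayed more frequent at distal sites (7.31% against 3.61%; odds ratio 2.10, exact test, adjusted p = 0.00945), and the SP and ETS strings stayed less frequent (18.0% against 32.5% and 0.877% against 2.66%). The octamer stood at 3.65% and 2.23% there (exact test, adjusted p = 0.193), the ESRRB string at 2.78% and 2.02% and the KLF string at 7.16% and 6.80%. In all 200 bp windows of the genome the SOX string was found at 3.51%, the octamer at 1.73%, the ESRRB string at 0.421%, the KLF string at 1.19% and the SP string at 1.96%.

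Within the distal sites, the KLF and ESRRB strings were more frequent where CHD4 was called. Members with CHD4 were also less often CpG-rich (10.7% against 41.6%), and the strings were not compared by CHD4 within each sequence class. The KLF string was present at 9.32% of the 429 members with CHD4 and 2.33% of the 515 without it (odds ratio 4.3, 2.18 to 9.14; Fisher's exact test, adjusted p = 1.80e-05 over 14 strings). The ESRRB string was present at 3.73% and 0.971% (odds ratio 3.95, 1.37 to 13.9; exact test, adjusted p = 0.0224), a call lost with CHD4 replicate 2 alone (adjusted p = 0.109), beyond 10 kb (0.0779), with 1 site per 50 kb (0.159) and in the central 100 bp (0.818). The SOX string, at 7.69% and 4.08%, and the octamer, at 3.96% and 2.33%, did not pass (exact test, adjusted p = 0.0659 and 0.323). The SP string was less frequent with CHD4 (21.2% against 35.1%, odds ratio 0.497, exact test, adjusted p = 1.80e-05). RE1 was present at 0.233% and 4.08% (odds ratio 0.0551), which are the counts already tested above for CHD4 at RE1 members and not a separate result. In all, 4 strings passed, against 9 when the spike-in list was left out and 7 when the other SIN3A list was left out, the SOX string and the octamer being among them in both cases. At least 1 of the SOX, octamer, ESRRB and KLF strings was present at 23.5% of members with CHD4 (19.6 to 27.8), 8.93% of those without (6.61 to 11.7) 31.2% of the 141 with CHD4, MBD3 and ZFP296 (23.7 to 39.5) and 16.5% of 4191 distal CHD4 sites without SIN3A (15.4 to 17.6). These shares of any of the 4 strings were not tested.

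**Figure D4:**
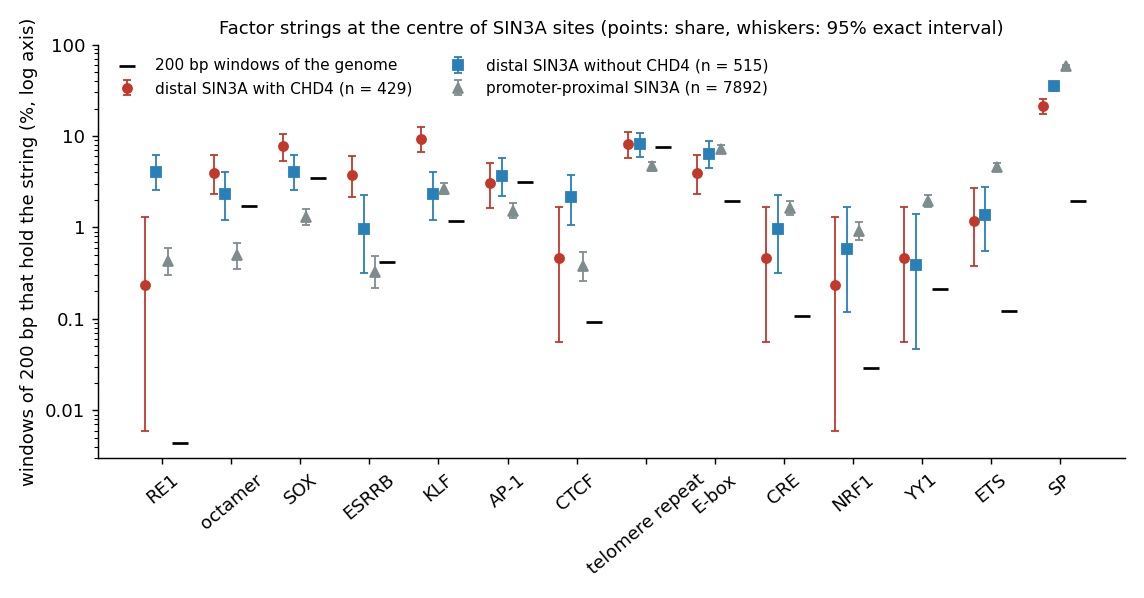
Share of 200 bp windows (y axis, percent, log axis) that held each factor string (x axis) at distal SIN3A sites with CHD4 (red, n = 429), distal sites without CHD4 (blue, n = 515) and promoter-proximal sites (grey, n = 7892), with 95% exact intervals, and in all windows of the genome (black bars). RE1 is highest at distal sites without CHD4 (4.08%) and KLF at distal sites with CHD4 (9.32%), while SP is highest at promoter-proximal sites (58.2%).

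SIN3A sites were also set against distal CHD4 sites that had no SIN3A. Of 5416 distal CHD4 sites of ESCs, 4191 had no SIN3A peak in either list. MBD3 was present at 228 of the 429 distal SIN3A sites with CHD4 (53.1%) and at 444 of the 4191 CHD4 sites without SIN3A (10.6%; odds ratio 9.56, 7.68 to 11.9; Fisher's exact test, adjusted p = 8.12e-90 over 3 lists). With MBD3 replicate 1 alone the shares were 61.8% and 13.1%, and with the longer replicate 2 list alone 74.4% and 30.0%. ZFP296 was present at 205 (47.8%) and 419 of these sites (odds ratio 8.23, 6.6 to 10.3; exact test, adjusted p = 1.25e-75), and NPC CHD4 at 11.7% and 7.97% (odds ratio 1.52, 1.09 to 2.10; adjusted p = 0.0128). The last call was lost with 1 site per 50 kb (odds ratio 1.21), and the difference was not found among sites without CpG-rich sequence (7.83% against 7.54%; odds ratio 1.04, exact test, adjusted p = 0.84), where the odds ratios of MBD3 and ZFP296 were 11.6 and 9.89.

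The CHD4 sites with SIN3A also had higher CHD4 values, with a median of 11.4 in CHD4 replicate 1 against 8.68 for those without SIN3A. Both sets were therefore compared within 4 ranges of that value. In the lowest range (3.08 to 6.78) MBD3 was present at 25.4% of CHD4 sites with SIN3A in both lists (15.8 to 37.1, n = 71) and 5.67% of those without SIN3A (4.43 to 7.12, n = 1218). In the highest range (from 12.2) the shares were 74.7% (68.0 to 80.7, n = 194) and 19.6% (17.1 to 22.2, n = 961). For ZFP296 they were 35.2% and 8.46% in the lowest and 61.3% and 12.3% in the highest range. The intervals did not overlap in any of the 4 ranges for either factor.

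**Figure D5:**
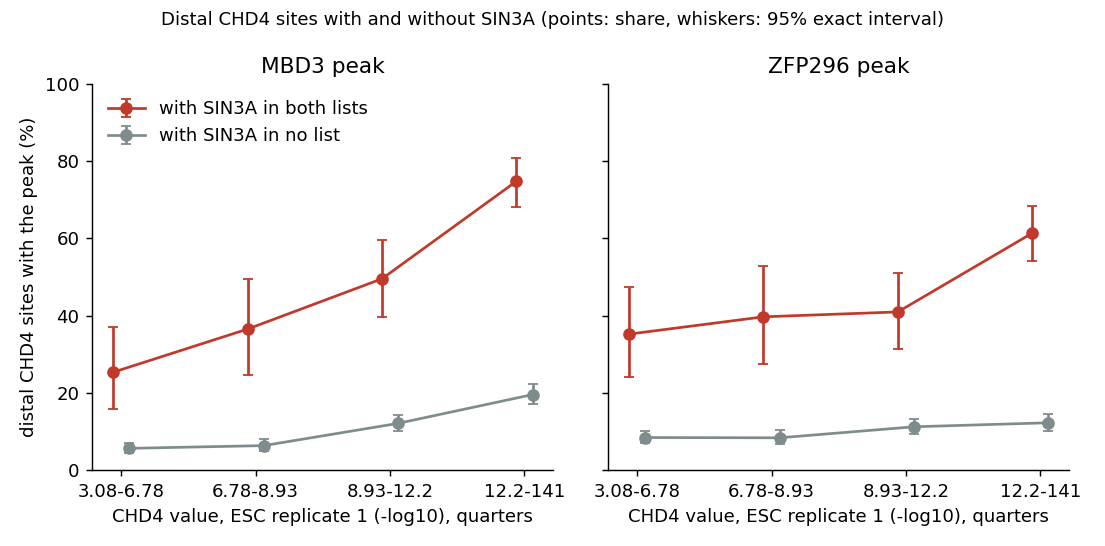
Share of distal ESC CHD4 sites (y axis, percent) with an MBD3 peak (left) or a ZFP296 peak (right) in 4 ranges of the CHD4 value of replicate 1 (x axis, −log10), for CHD4 sites with SIN3A in both lists (red) and with SIN3A in no list (grey), with 95% exact intervals. The red points lie above the grey ones in every range, from 25.4% against 5.67% to 74.7% against 19.6% for MBD3.

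Some members lay close together. In 86 clusters, 196 of the members (20.8%) had a neighbouring member no more than 12290 bp away. The largest held 7 members over 13315 bp on chromosome 6 around the microRNA genes Mir183 and Mir96, with 4 CpG-rich members and CHD4 at 1. The next held 5 members over 18167 bp on chromosome 7 at Mir290, Mir291a, Mir291b and Mir292, microRNA genes that are highly active in ESCs, and 4 of the 5 had CHD4, MBD3 and ZFP296. Clusters of 4 lay in Tcfap2a (Tfap2a), a regulator of neural crest and epidermis, and near Nanos3, a germ cell gene, with CHD4 at 3. In Tcfap2a no member had ZFP296, or CHD4 or MBD3 in both ESC lists. CHD4 was called at 48.0% of clustered and 44.8% of single members.

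Genes near distal SIN3A sites were counted within 100 kb of a TSS. Over all 22367 protein-coding genes, 10.9% had a member in that range, which is the background for the following lists of 20 genes each. Of the 20 pluripotency genes 10 (50%) had at least 1 member, of 19 matched lineage regulators 5 (26.3%), of the SIN3 complex genes 4 (20%) and of the neuronal genes known to be bound by REST 1 (5.00%). The median number of members per gene was 0.5 for the pluripotency list and 0 for the others and for all genes. The lists were chosen with earlier results of these data known, and no test was run on them.

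Among the pluripotency genes, Klf4 had 3 members between 54220 and 67397 bp from its TSS, all with CHD4, MBD3 and ZFP296, and SIN3A values of 5.09, 22.8 and 15.6 in the spike-in list. Esrrb had 3 members in its introns, between 5441 and 8976 bp from a TSS, 1 of them with CHD4 and ZFP296 and 1 with the octamer. Tbx3 had 2 members with CHD4 and MBD3, Tfcp2l1 an intronic member with CHD4, MBD3 and ZFP296 (15.9 and 19.2), and Zfp42, the gene of the ESC marker REX1, an intergenic member with CHD4 and MBD3 and values of 24.5 and 23.2. Prdm14 had 2, Nanog 3 and Klf2 2 members. The only member near Dppa3 was also 1 of the 3 near Nanog, so that 1 site counted for both genes. The others near Nanog lay in introns of Slc2a3. The member near Lin28a lay 99286 bp from its TSS, in an intron of Ubxn11. It had no MBD3 or ZFP296 peak and a CHD4 peak in replicate 2 alone (value 5.16). None of the members near these pluripotency genes was CpG-rich, against 27.5% of all members and 10.7% of those with CHD4. No test was run on these few sites.

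The lineage regulators with a member were Gata4, Mixl1, Tbx6, Hnf4a and Tfap2a. None of their 8 members had ZFP296, or CHD4 or MBD3 in both ESC lists, which also held for 48.4% of all members. Of the 8, 4 form the cluster in Tfap2a, and no test was run. CHD4 replicate 2 alone had peaks at the members near Gata4 (value 5.53) and Mixl1 (11.3) and at members in Tfap2a (7.77 and 10.7). The members near Gata4, Mixl1 and Tbx6 and 2 of the 4 in Tfap2a were CpG-rich, whereas the one near Hnf4a was not. The member near Tbx6 lay 7 bp from the TSS of a processed transcript. The single member near a neuronal REST gene lay 7021 bp from Stmn3, a stathmin gene of neurons. It had SIN3A values of 9.55 with and 52.0 without spike-in and matched RE1 with 2 mismatches. Of the SIN3 list, Tet1, whose product is a methylcytosine dioxygenase that occurs with SIN3A, had 3 members in introns with SIN3A values of 10.9, 8.46 and 8.92, 1 of them with CHD4, MBD3 and ZFP296. Brms1, Ing1 and Fam60a, which encode subunits of the SIN3 complex, had 1 member each within 100 kb.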

How the data were processed

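The authors mapped ChIP-seq reads to mm9 with BWA, kept unique reads without duplicates and called peaks per sample with MACS 2.0 against an input, so that replicates were not pooled. The deposited peak lists give a −log10 value per peak, of which p or q is not given in the sources used here. It was used only within a list. Of 36 samples, the 9 with a peak list were used, and the other 27 were not analysed here. Groups came from the sample titles. Members are peaks of the spike-in SIN3A list with an overlap of at least 1 bp in the other SIN3A list and a midpoint over 5 kb from every protein-coding TSS (GENCODE vM1). Another 7 sites on other contigs were left out. A site had CHD4 or MBD3 in ESCs when it overlapped a replicate 1 peak that was also found in replicate 2.

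Each comparison of site classes used Fisher's exact test, two-sided, with Benjamini-Hochberg adjustment within each family and calls at an adjusted p of 0.05. Odds ratios are conditional, with exact 95% intervals, and shares carry exact (Clopper-Pearson) 95% intervals. A count of 0 allows up to 3 counts of the total. Fisher's test treats sites as independent, which neighbouring sites are not. Strings were read on both strands in 200 bp, and CpG content in 500 bp, around each midpoint of the mm9 reference. Symbols missing from the annotation were matched through older symbols of RefSeq (GRCm38, names only), which left Sox1 unmatched. Python 3.11.15, numpy 2.4.6, scipy 1.17.1 and pyfaidx 0.9.0.4 were used, and the overlap, distance, string and test functions were tested on simulated data.

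Sites were named by a rule: the 10 highest values, the 5 highest with RE1, with CHD4, MBD3 and ZFP296, with none of them and within 1 kb of a TSS of a gene that is not protein-coding, the 3 nearest to 5 kb on each side, the 3 largest clusters and the members within 100 kb of 4 gene lists. The Myst4, Garnl3, Xkr6, Camta1 and Nanos3 sites were named after their values were seen. The members and lists were chosen with earlier results of these data known. The stricter overlap rule asked a peak to cover at least 50% of the site. In all, 16 planned and 5 added alternatives were run. A few sequences are not reported here.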

Additional observations from a re-analysis of the deposited data

Results flagged for a closer look

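The ESC and NPC occupancy of the members differed from that of promoter-proximal SIN3A sites when the difference itself was tested. Of distal sites with CHD4 in 1 cell type only, 84.6% had it in ESCs, against 33.3% of such promoter-proximal sites (odds ratio 10.97, 8.24 to 14.8; two-sided Fisher's exact test, adjusted p = 7.02e-83 over 2 factors). The odds ratio was 8.90 with CHD4 replicate 1 alone (86.2% against 41.1%) and 4.76 with replicate 2 alone (95.1% against 80.2%). The promoter-proximal share thus depended on the ESC list, since a peak in both ESC lists was asked for but only 1 NPC list existed. For MBD3 the shares were 91.3% and 36.7% (odds ratio 17.9, 11.01 to 30.2; exact test, adjusted p = 2.38e-48), with odds ratios of 10.8 and 13.02 for single replicates. These tests were added after the values were seen, the sites were chosen by an ESC protein, and NPCs had 1 list per factor, so that cell type and library cannot be told apart.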

How the results depend on the processing

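CHD4 and MBD3 at distal against promoter-proximal SIN3A sites kept their direction and call under every alternative tried, with odds ratios from 3.53 to 12.52 and from 2.81 to 19.8, as did CpG-rich sequence (0.0378 to 0.0871). ZFP296 kept its direction (1.90 to 12.6) and lost its call within CpG-rich sites (1.90). The number of members was 298 with a value of at least 10 in both lists, 1481 with the 5′ ends of genes alone, and between 1585 and 2787 with 1 SIN3A list left out. NPC CHD4 passed the test with an odds ratio of 0.634 at a value of at least 10, 0.758 with 1 site per 50 kb and 0.699 to 0.839 with 1 SIN3A list left out, and it stood above 1 with the stricter overlap rule (1.17) and within CpG-rich sites (2.18). NPC MBD3 passed with 1 SIN3A list left out (0.594 to 0.693) and with TSSs of every gene type (0.581), and stood above 1 with that overlap (1.02), without CpG-rich sites (1.03) and within them (1.60). The strings that differed between distal and promoter-proximal sites numbered 3 without CpG-rich sites. Those that differed with CHD4 numbered 7 with gene 5′ ends, and 3 to 9 with 1 list left out. With up to 1 mismatch in RE1, 4 partners differed. The E-box ranged from 0.652 to 1.08 with 1 SIN3A list left out, above 1 without the spike-in list. Odds ratios turned for AP-1 and TTAGGG (0.889 and 0.91 without CpG-rich sites) and for NPC CHD4 at SIN3A against other CHD4 sites (0.806 at a value of at least 10). The causes were not tested. No odds ratio could be given for the ESRRB string at that value, where no member without CHD4 held it. No paired analysis was possible because the results come from overlaps of peak lists and no model was fitted across samples. A single peak list per SIN3A preparation limits every count of members, and a peak missing from a list may be a peak below its threshold.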

Other observations

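Chromosomes 6 and 8 held 95 and 101 of the 944 members (10.1% and 10.7%), against 6.13% and 7.62% of promoter-proximal SIN3A sites, and chromosome X held 1 member and 22 promoter-proximal sites. Peak shares of these chromosomes also varied between lists. Chromosome 6 had 8.64% of CHD4 peaks in ESC replicate 1 and 5.58% in replicate 2, and chromosome 8 had 9.31% of MBD3 peaks in replicate 1 and 4.14% in replicate 2. Their part in the counts was not tested.

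A pair of members in an intron of Camta1 overlapped 1 peak of the list without spike-in (value 213) and had values of 65.6 and 3.78 in the spike-in list, so that the members are not all independent sites.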
